A study of Mus musculus with 20 samples.

Results

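The 10 genes described here are the members of the AP-1 (activator protein 1) family of transcription factors that were chosen by symbol: the Fos proteins Fos, Fosb, Fosl1 and Fosl2, the Jun proteins Jun, Junb and Jund, and the relatives Atf3, Batf and Batf3. They are 10 of the 23090 genes in the files, all 10 were found, and no member was dropped. RNA was counted in 20 libraries of myeloid cells sorted from mouse tumours, in 4 groups of 5: granulocytic myeloid-derived suppressor cells (gMDSC) from mice dosed with CBPi, gMDSC from mice dosed with vehicle, monocytic ones (mMDSC) with CBPi, and mMDSC with vehicle. CBPi is GNE-781, an inhibitor of the bromodomains found in CBP and its relative EP300, which acetylate histones. It was given by oral gavage at 25 mg/kg BID for 7 days, and MCT was the vehicle. All mice were female SCID.beige animals aged 6 to 8 weeks, a strain without T and B cells and with impaired NK cells, and each was implanted under the skin with MDA.MB.231-X1.1 or CT26 tumour cells. The first is a human breast cancer line and the second a mouse colon carcinoma line. The labels do not say which line a library came from, so lines and groups cannot be told apart. Before sorting, tumour tissue was dissociated with DNAse and collagenase D. Both populations were CD45+, CD11b+, Ly6C+ and F4/80-, with Ly6G on gMDSC and not on mMDSC.

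Libraries held 12372630 to 26635889 counts, and 4 of the 5 vehicle gMDSC libraries lay below every CBPi gMDSC library in depth. Levels are given in CPM, the reads of a gene relative to its library total, scaled by TMM over the 20 libraries, and n is 5 libraries in each group. The TMM factors were 0.739 to 0.981 in gMDSC and 1.019 to 1.214 in mMDSC, which raises CPM in gMDSC relative to mMDSC. The neutrophil marker list summed to 7977 to 15166 CPM in CBPi gMDSC and 9641 to 36688 CPM in vehicle gMDSC (to 20037 CPM without vehicle gMDSC 3), against 235 to 369 CPM in CBPi mMDSC and 363 to 440 CPM in vehicle mMDSC. Ly6g itself was low, with means of 0.973 CPM in CBPi gMDSC and 5.21 CPM in vehicle gMDSC. Macrophage markers were present in all groups despite the F4/80- gate, and Adgre1, the gene of F4/80, averaged 807 ± 161 CPM in CBPi gMDSC and 1038 ± 321 CPM in vehicle gMDSC (SD). One library stood apart: vehicle gMDSC 3 had a median correlation of log2 CPM with its own group of 0.856, against 0.914 to 0.927 for the other 4 vehicle gMDSC libraries, and results that rest on it are given also without it.

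AP-1 factors are basic leucine zipper (bZIP) proteins that bind DNA as dimers. Jun proteins pair with each other or with Fos proteins, and Fos proteins need a partner. Fos, Fosb, Jun, Junb and Atf3 are immediate-early genes, transcribed within minutes of growth factor, cytokine or stress signals through MAP kinases, and the dimers bind the TPA response element or the related cAMP response element (CRE). Fosl1 and Fosl2 lack the strong activation domain of Fos, Junb and Jund can oppose Jun, Atf3 can repress inflammatory genes, and Batf and Batf3 act with Jun proteins and the interferon regulatory factors IRF4 and IRF8 in lymphocytes and dendritic cells. CBP was first known as a coactivator of the CRE-binding protein CREB and also binds Fos and Jun, which is why promoter sequence is shown first.

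Of the 10 members, 9 had an entry in the RefSeq promoter table of GRCm38.p6, which spans 250 bases before to 50 after the annotated start, and Fosl1 had none. Both strands were searched for TGANTCA, a loose form of the TPA response element in which N is any base. They were also searched for the CRE TGACGTCA, its variant TGACATCA and the CRE half-site TGACGT, which every full CRE also holds. The last pattern was the CArG box, the site of serum response factor. In all 32851 promoters of the table the shares with a match were 7.81% for TGANTCA, 1.79% for TGACGTCA, 3.62% for TGACATCA, 7.51% for TGACGT and 1.63% for the CArG box. Among the 9 members, 4 held a match to any of them. The share of all promoters with a match to any of them was not counted, so this count has no background. The 4 matched promoters are printed 5′ to 3′ with the matched letters in capitals. They place the CRE-type letters against the start of genes with different responses. Positions are counted from the start, with -1 the last base before it. Jun (chr4:95052173-95052472, minus strand) held TGACATCA at -45 to -38. Fos (chr12:85473640-85473939, plus strand) held TGACGT at -66 to -61, Batf (chr12:85686470-85686769, plus strand) held it at -98 to -93, and Atf3 (chr1:191183284-191183583, minus strand) held it in reverse at -8 to -3. The promoters of Fosb, Fosl2, Junb, Jund and Batf3 held none of these letters in this window. These are matches of letters and not measured binding sites.
Jun: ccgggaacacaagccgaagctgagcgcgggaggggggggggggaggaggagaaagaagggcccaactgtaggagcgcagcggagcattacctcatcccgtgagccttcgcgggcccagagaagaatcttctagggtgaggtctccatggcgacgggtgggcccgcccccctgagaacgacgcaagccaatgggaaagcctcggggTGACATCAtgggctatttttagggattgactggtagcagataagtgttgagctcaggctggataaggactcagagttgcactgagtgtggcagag
Fos: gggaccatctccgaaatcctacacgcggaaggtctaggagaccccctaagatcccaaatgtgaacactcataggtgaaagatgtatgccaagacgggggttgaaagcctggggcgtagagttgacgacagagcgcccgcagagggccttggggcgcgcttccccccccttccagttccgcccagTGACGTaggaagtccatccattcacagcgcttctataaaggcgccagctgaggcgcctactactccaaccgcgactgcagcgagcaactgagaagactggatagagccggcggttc
Atf3: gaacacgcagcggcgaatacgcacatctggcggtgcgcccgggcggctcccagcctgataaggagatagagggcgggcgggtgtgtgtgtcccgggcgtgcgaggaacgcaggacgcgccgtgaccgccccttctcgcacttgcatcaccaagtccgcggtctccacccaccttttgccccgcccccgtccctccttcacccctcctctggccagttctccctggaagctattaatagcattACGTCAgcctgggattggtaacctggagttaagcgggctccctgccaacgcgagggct
Batf: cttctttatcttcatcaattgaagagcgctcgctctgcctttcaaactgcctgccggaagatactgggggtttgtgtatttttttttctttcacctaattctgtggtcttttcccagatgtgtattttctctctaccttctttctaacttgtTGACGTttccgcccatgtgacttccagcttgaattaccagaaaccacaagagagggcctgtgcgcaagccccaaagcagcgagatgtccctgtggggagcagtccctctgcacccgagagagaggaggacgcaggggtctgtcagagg

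Fos, Junb and Jun made up most of the family's mRNA in all 4 groups, and the leading member differed between the cell types. Levels of different genes were compared by the authors' RPKM, which divides by coding width. Junb led in CBPi gMDSC at 4452 ± 613 RPKM and in vehicle gMDSC at 4228 ± 532 RPKM, with Fos next at 2746 ± 305 RPKM in CBPi gMDSC and 2439 ± 344 RPKM in vehicle gMDSC, and the ranges of the pair did not overlap in either group. The range of Fos in CBPi gMDSC overlapped that of Jun, next below it. Fos led in CBPi mMDSC at 2548 ± 411 RPKM and in vehicle mMDSC at 2134 ± 312 RPKM, with Junb next at 2271 ± 339 RPKM in CBPi mMDSC and 1482 ± 116 RPKM in vehicle mMDSC. The ranges of Fos and Junb overlapped in CBPi mMDSC and not in vehicle mMDSC. Jun and Atf3 came next below Fos and Junb in every group, with Jun ahead in both gMDSC groups and in CBPi mMDSC. Atf3 was ahead in vehicle mMDSC, at 399 ± 45.0 RPKM against 349 ± 75.6 RPKM for Jun. Their ranges overlapped in vehicle mMDSC, CBPi mMDSC and vehicle gMDSC and were separate in CBPi gMDSC, where Jun was at 2038 ± 712 RPKM and Atf3 at 868 ± 283 RPKM. Jund came after these 4 members in all 4 groups. Fosl1 was the lowest member in 3 groups, while in CBPi gMDSC, at 8.18 ± 3.71 RPKM, it stood above Batf3 at 4.17 ± 1.17 RPKM, with overlapping ranges.

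As a share of the family's summed RPKM in each library, Jun averaged 18.7% ± 3.42 in CBPi gMDSC and 8.13% ± 1.09 in vehicle gMDSC (SD), and no CBPi library, at 15.4% or more, fell within the vehicle range of 7.20% to 9.87%. In mMDSC the Jun share was 11.4% ± 1.64 with CBPi and 7.49% ± 1.34 with vehicle, again without overlap. The 3 Jun proteins together held 64.2% ± 2.04 in CBPi gMDSC and 62.8% ± 3.73 in vehicle gMDSC, so the sum was close between treatments in gMDSC while its make-up was not: Junb held 42.1% ± 3.32 with CBPi and 51.4% ± 4.04 with vehicle. In mMDSC the 3 Jun proteins held 50.9% ± 1.17 with CBPi and 42.8% ± 3.51 with vehicle, and Fos held 39.0% ± 1.00 with CBPi and 45.7% ± 3.69 with vehicle. The ratio of Jun to Junb RPKM was 0.451 ± 0.114 in CBPi gMDSC, 0.160 ± 0.0340 in vehicle gMDSC, 0.328 ± 0.0530 in CBPi mMDSC and 0.234 ± 0.0367 in vehicle mMDSC. These shares are descriptions of the same libraries and carry no test.

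**Figure D1:**
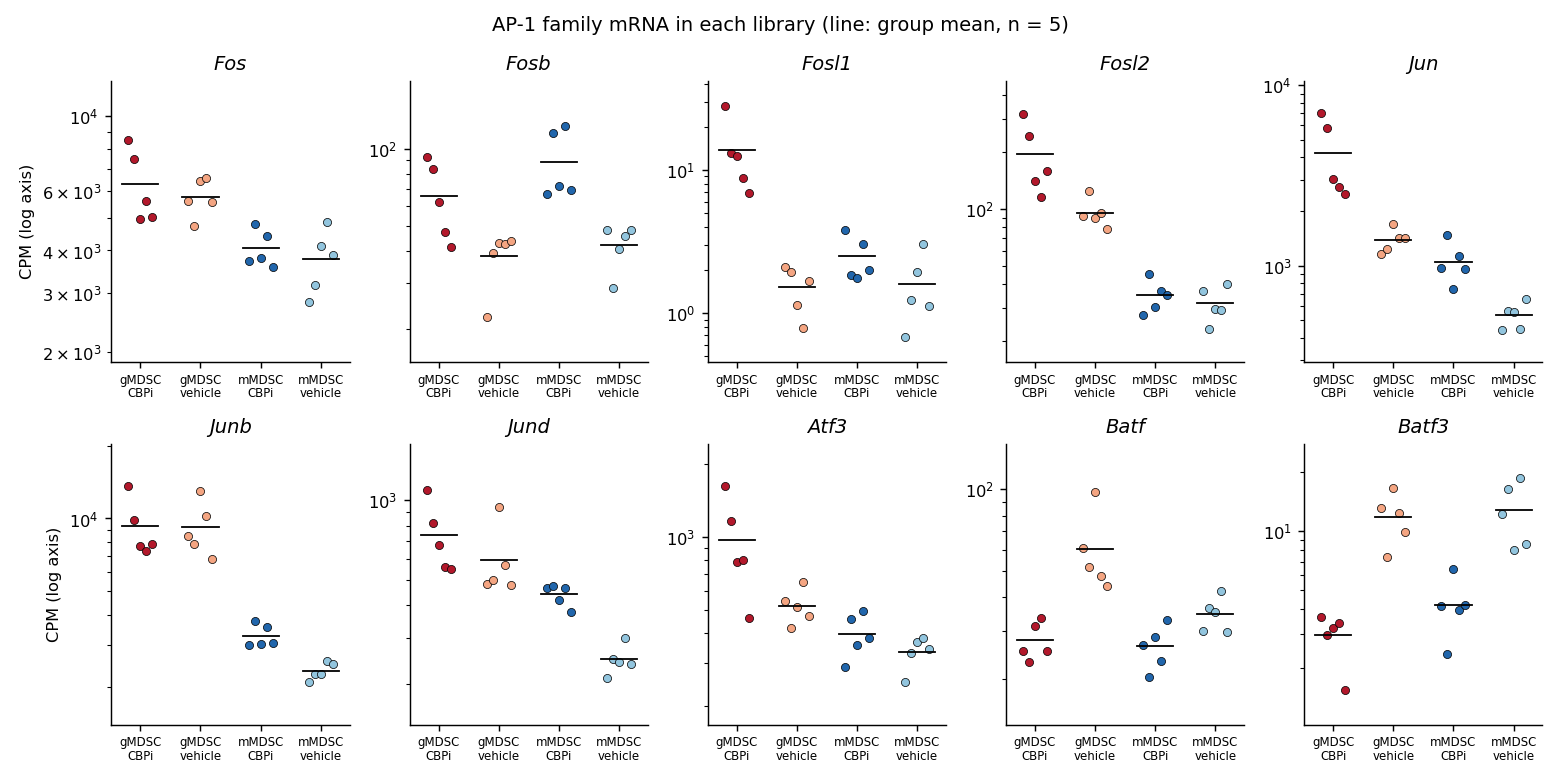
Level of each AP-1 member in each library, in CPM on a log axis that differs between panels, with 5 points per group and a line at the group mean. Jun and Fosl1 in CBPi gMDSC lie above every vehicle gMDSC library, and Batf3 in both CBPi groups lies below every vehicle library of the same cell type.

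**Figure D2:**
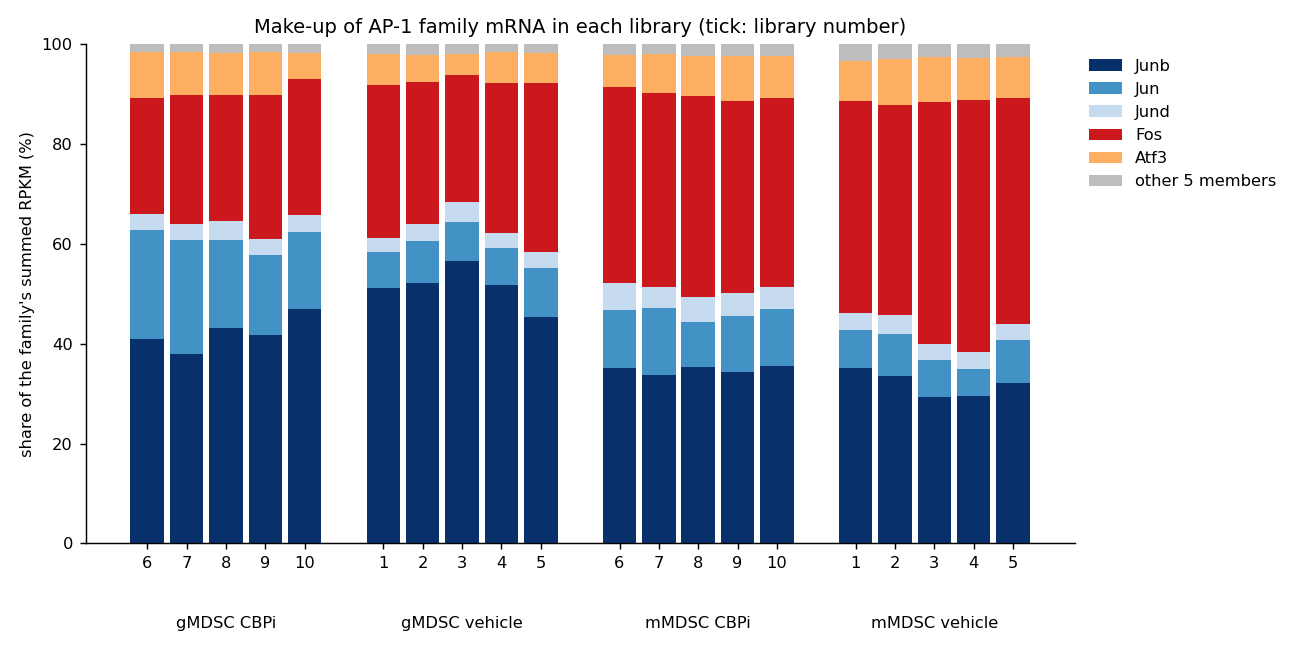
Share of the family's summed RPKM (%) held by Junb, Jun, Jund, Fos, Atf3 and the other 5 members together, 1 bar per library with its number below. The Jun share is 15.4% to 22.9% in CBPi gMDSC and 7.20% to 9.87% in vehicle gMDSC, and Fos holds more of the family in mMDSC than in gMDSC.

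Members differed between CBPi and vehicle libraries in both directions in both cell types, with Jun higher and Batf3 lower with CBPi in each. In gMDSC, 4 of the 10 members were higher with CBPi (Fosl1, Fosl2, Jun and Atf3) and 2 lower (Batf and Batf3), where 4.18% of the 11694 genes tested were higher and 5.52% lower. The count of higher members in gMDSC was 2, Fosl1 and Jun, without CBPi gMDSC 6, without CBPi gMDSC 7 or without vehicle gMDSC 1. In mMDSC, 4 of 10 were higher (Fosb, Jun, Junb and Jund) and 1 lower (Batf3), where 3.02% of 11912 genes were higher and 5.54% lower. All 10 members passed the filter on low counts in both. The median log2 fold change of the members was 0.58 in gMDSC and 0.36 in mMDSC, against 0 and 0.01 over all genes tested. A gene is called higher or lower here where edgeR's quasi-likelihood test gave a Benjamini-Hochberg adjusted p under 0.05 over all genes tested. In sorted bulk samples, fewer cells of one type and less RNA per cell cannot be told apart.

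**Figure D3:**
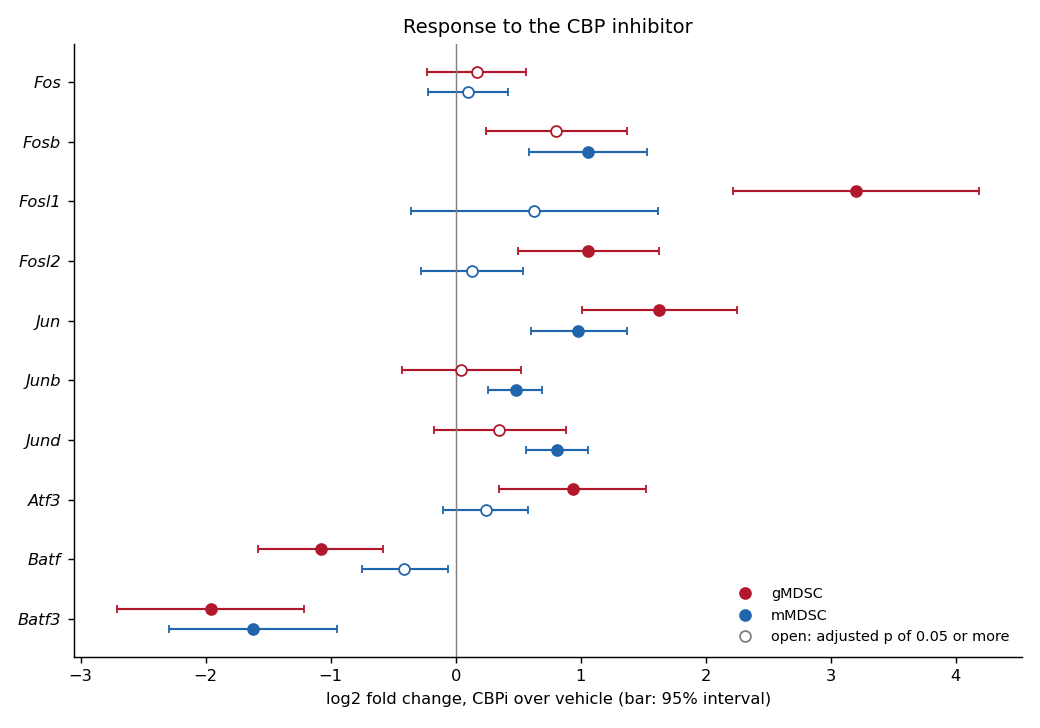
Log2 fold change of each member, CBPi over vehicle, in gMDSC and mMDSC, with 95% intervals from edgeR; filled points have an adjusted p under 0.05 and open points do not. Jun is above 0 and Batf3 below 0 in both cell types, and Fosl1 in gMDSC has the highest value at 3.20.

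Jun, the founding member and a strong activator, had 7035, 5792, 3035, 2740 and 2484 CPM in CBPi gMDSC 6 to 10, against 1161, 1238, 1707, 1422 and 1433 CPM in vehicle gMDSC 1 to 5. Every CBPi gMDSC library lay above every vehicle one, and CBPi gMDSC 6 and 7 were the highest by far. Jun rose in gMDSC by a log2 fold change of 1.63 ± 0.29 (SE; adjusted p = 0.00449, higher in 5 of 5 libraries). In mMDSC it had 968, 1473, 741, 1132 and 963 CPM in CBPi mMDSC 6 to 10, against 440, 559, 557, 448 and 657 CPM in vehicle mMDSC 1 to 5. These groups too did not overlap, and the log2 fold change was 0.98 ± 0.18 (adjusted p = 0.00433).

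Junb and Jund, which pair with the same partners and can act against Jun, rose in mMDSC. Junb had 3006, 3763, 3013, 3554 and 3053 CPM in CBPi mMDSC 6 to 10, against 2104, 2282, 2263, 2572 and 2502 CPM in vehicle mMDSC 1 to 5. The groups were separate, with a log2 fold change of 0.48 ± 0.10 (adjusted p = 0.0108), and the call was lost in a fit of all 20 libraries (adjusted p = 0.129). Jund had 463, 472, 420, 465 and 376 CPM in CBPi mMDSC 6 to 10, against 211, 250, 244, 300 and 238 CPM in vehicle mMDSC 1 to 5, also with no overlap. Its log2 fold change of 0.81 ± 0.11 had the smallest adjusted p of the family in mMDSC (0.000864). In gMDSC both overlapped between treatments. Junb averaged 9272 ± 2609 CPM with CBPi and 9251 ± 2433 CPM with vehicle (log2 fold change 0.04, 95% interval -0.43 to 0.52, adjusted p = 0.931), and Jund 739 ± 226 CPM with CBPi and 594 ± 200 CPM with vehicle (0.35, -0.17 to 0.88, adjusted p = 0.386). Without vehicle gMDSC 3, which had the highest Jund of its group, the Jund value was 0.57 ± 0.20 (adjusted p = 0.0812).

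Among the Fos proteins, Fos itself, the partner with which Jun forms the classical AP-1 dimer, passed the test in neither cell type. It averaged 6305 ± 1579 CPM in CBPi gMDSC and 5773 ± 738 CPM in vehicle gMDSC (log2 fold change 0.17, 95% interval -0.23 to 0.56, adjusted p = 0.614). In mMDSC it averaged 4064 ± 514 CPM with CBPi and 3765 ± 807 CPM with vehicle (0.10, -0.22 to 0.42, adjusted p = 0.749). Differences of more than these bounds, about 0.56 and 0.42 on the log2 scale, lie outside the intervals.

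Fosb, an immediate-early gene like Fos, had 66.6, 115, 71.7, 122 and 69.4 CPM in CBPi mMDSC 6 to 10, against 48.2, 28.9, 40.9, 45.7 and 48.5 CPM in vehicle mMDSC 1 to 5. CBPi mMDSC 7 and 9 were the highest and the groups did not overlap (log2 fold change 1.06 ± 0.22, adjusted p = 0.00885). In gMDSC, Fosb had 92.7, 83.5, 62.2, 47.6 and 41.4 CPM with CBPi, against 22.3, 39.4, 43.1, 42.8 and 43.7 CPM with vehicle. Only CBPi gMDSC 10 lay inside the vehicle range, but the log2 fold change of 0.80 ± 0.26 had an adjusted p of 0.0715, while DESeq2 (0.0292) and a fit of all 20 libraries (0.0353) put it under 0.05.

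Fosl1 (FRA-1), a Fos relative known from invasive tumour cells and from macrophages, was the lowest member in the other groups and rose in CBPi gMDSC. It had 27.8, 13.2, 12.6, 8.78 and 6.87 CPM in CBPi gMDSC 6 to 10, from 143 to 430 reads, against 2.10, 1.94, 1.14, 0.795 and 1.67 CPM in vehicle gMDSC 1 to 5, from 9 to 38 reads. The groups were far apart and did not overlap (log2 fold change 3.20 ± 0.46, adjusted p = 0.00116). In mMDSC it averaged 2.50 ± 0.909 CPM with CBPi and 1.61 ± 0.920 CPM with vehicle, with overlap (0.63, 95% interval -0.36 to 1.62, adjusted p = 0.462). Fosl1 overlaps Ccdc85b on the opposite strand, so without a stated use of strand their shared reads cannot be told apart. Ccdc85b averaged 5.75 ± 1.08 CPM in CBPi gMDSC and 7.74 ± 6.45 CPM in vehicle gMDSC (log2 fold change -0.39 ± 0.48, adjusted p = 0.657). The epithelial marker list summed to 6.30 to 11.7 CPM in CBPi gMDSC and 24.0 to 56.8 CPM in vehicle gMDSC. Within it, Krt18 had means of 1.53 CPM in CBPi gMDSC and 34.0 CPM in vehicle gMDSC. Of its 4 tested genes 2 were lower and 0 higher, and Cdh1 was at 0.49 ± 0.44 (adjusted p = 0.518). Reads were aligned to the mouse genome, so the list is no gauge of cells of the human line. The part of tumour cells in the Fosl1 result was not tested.

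Fosl2 (FRA-2) had 318, 243, 140, 116 and 159 CPM in CBPi gMDSC 6 to 10, against 91.7, 125, 89.7, 94.7 and 78.0 CPM in vehicle gMDSC 1 to 5. CBPi gMDSC 9 lay below the highest vehicle library and the other 4 above it (log2 fold change 1.06 ± 0.26, adjusted p = 0.0234). The call was lost without CBPi gMDSC 6, without CBPi gMDSC 7 or without vehicle gMDSC 1 (adjusted p up to 0.0677). In mMDSC it averaged 34.9 ± 6.86 CPM with CBPi and 31.7 ± 6.78 CPM with vehicle (0.13, 95% interval -0.28 to 0.54, adjusted p = 0.75).

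Atf3, a stress-induced factor that can repress or activate, had 1623, 1164, 790, 806 and 464 CPM in CBPi gMDSC 6 to 10, against 544, 420, 512, 654 and 470 CPM in vehicle gMDSC 1 to 5. CBPi gMDSC 10 lay within the vehicle range and the other 4 above it (log2 fold change 0.94 ± 0.27, adjusted p = 0.0459). The call was lost with limma-voom (adjusted p = 0.0676) and on leaving out any single library except CBPi gMDSC 10 (adjusted p up to 0.119). In mMDSC Atf3 averaged 396 ± 80.7 CPM with CBPi and 335 ± 51.1 CPM with vehicle (0.24, 95% interval -0.10 to 0.58, adjusted p = 0.417).

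The Batf pair, bZIP proteins without an activation domain of their own, ran the other way. Batf3, known for its part in the dendritic cells that cross-present antigen, had 3.63, 2.96, 3.21, 3.40 and 1.54 CPM in CBPi gMDSC 6 to 10, against 13.1, 7.36, 16.6, 12.4 and 9.90 CPM in vehicle gMDSC 1 to 5. In mMDSC it had 4.15, 2.37, 6.38, 3.98 and 4.22 CPM with CBPi, against 12.3, 16.5, 8.02, 18.7 and 8.60 CPM with vehicle. In both cell types every CBPi library lay below every vehicle one. Batf3 fell by 1.96 on the log2 scale in gMDSC (SE 0.35, adjusted p = 0.00449) and by 1.62 in mMDSC (SE 0.31, adjusted p = 0.00607). The values rest on 32 to 226 reads per gMDSC library and 65 to 425 per mMDSC library.

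Batf, known from T helper and other lymphocyte programmes, had 25.4, 23.1, 31.5, 33.7 and 25.3 CPM in CBPi gMDSC 6 to 10, against 60.6, 51.8, 98.2, 47.8 and 43.9 CPM in vehicle gMDSC 1 to 5. No CBPi library reached the vehicle range, and vehicle gMDSC 3 was the highest (log2 fold change -1.08 ± 0.23, adjusted p = 0.0122). Without that library the value was -0.84 ± 0.17 (adjusted p = 0.00743). In mMDSC it averaged 26.4 ± 4.79 CPM with CBPi and 34.8 ± 5.22 CPM with vehicle, a log2 fold change of -0.41 ± 0.16 that did not pass (adjusted p = 0.144). Summed levels of 2 marker lists were also lower with CBPi, without overlap except for the second list in mMDSC. The dendritic cell list summed to 238 to 351 CPM in CBPi gMDSC and 452 to 658 CPM in vehicle gMDSC, and to 197 to 260 CPM in CBPi mMDSC and 345 to 531 CPM in vehicle mMDSC. Most of these sums was the integrin gene Itgax, which fell in gMDSC (log2 fold change -0.95 ± 0.18, adjusted p = 0.00618) and in mMDSC (-1.19 ± 0.16, adjusted p = 0.000596). The chemokine receptor gene Ccr7 rose in gMDSC (2.71 ± 0.80, adjusted p = 0.0491), and no other gene of the list passed with edgeR among 6 tested in gMDSC and 7 in mMDSC. Xcr1, a marker of cross-presenting dendritic cells, was too low to be tested in either cell type and had no read in CBPi mMDSC. The median log2 fold change of the dendritic cell genes tested was -0.32 in gMDSC and 0.30 in mMDSC. The lymphocyte and NK list summed to 5.34 to 11.6 CPM in CBPi gMDSC and 24.7 to 58.0 CPM in vehicle gMDSC, and to 2.78 to 17.1 CPM in CBPi mMDSC and 14.0 to 37.5 CPM in vehicle mMDSC. With edgeR, 2 of its 6 tested genes were lower in gMDSC and 1 of 5 in mMDSC, and none was higher there, at an unadjusted p under 0.05 or with DESeq2 or limma-voom. Their part in the fall of Batf and Batf3 was not tested.

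Within CBPi gMDSC, 8 members had their highest CPM in the same 2 libraries. CBPi gMDSC 6 and 7 were the highest 2 of the 5 for Fos, Fosb, Fosl1, Fosl2, Jun, Junb, Jund and Atf3. Both had the lowest TMM factors of their group (0.739 and 0.827), which raises the CPM of all their genes. By the authors' RPKM, CBPi gMDSC 8 stood above CBPi gMDSC 7 for Fosl1 (8.83 against 7.43) and Jund (377 against 369). The share of all genes highest in these 2 libraries was not counted. CBPi gMDSC 6 and 7 also had the highest neutrophil marker sums, 15166 and 11613 CPM, and the lowest macrophage marker sums, 16114 and 18578 CPM, of their group. Between treatments the macrophage list did not overlap, at 16114 to 31716 CPM in CBPi gMDSC and 33996 to 77685 CPM in vehicle gMDSC (to 48416 CPM without vehicle gMDSC 3), with 3 of 12 genes lower and 0 higher (2 higher at an unadjusted p under 0.05, 1 with DESeq2 and 0 with limma-voom). Of 14 neutrophil markers, 6 were lower with CBPi in gMDSC and none higher by any of the 3 tools, and of 12 monocyte markers 6 were lower and 3 higher. In mMDSC 6 of 12 monocyte markers were lower and 1 higher, and 4 of 12 macrophage markers lower and 1 higher. Nr4a1, also counted among the other immediate-early genes, was the 1 higher monocyte marker in mMDSC and 1 of the 3 in gMDSC. The heat shock gene Hspa1a was at 1375, 795, 591, 578 and 317 CPM in CBPi gMDSC 6 to 10, the same order of libraries as Jun, against 31.4 to 53.3 CPM in vehicle gMDSC. In mMDSC, where Jun also rose, Hspa1a was at 60.0 to 79.8 CPM with CBPi and 33.9 to 109 CPM with vehicle, so those groups overlapped. The part of these markers in the members' results was not tested.

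The response, meaning the change from vehicle to CBPi, was compared between the cell types over all 20 libraries, as the difference between both responses. No member passed with edgeR, where 0.497% of 12688 genes had a more positive response in gMDSC and 0.229% a more negative one. At an unadjusted p under 0.05 there were 3 members, DESeq2 called 1 and limma-voom 0. Fosl1 came closest, with a response in gMDSC higher by 2.53 ± 0.62 on the log2 scale (95% interval 1.24 to 3.82, adjusted p = 0.0571). It passed with DESeq2 (adjusted p = 0.0047), without vehicle mMDSC 1 (0.0402) and without CBPi gMDSC 10 (0.0439). The other 2 were Fosl2 at 0.89 ± 0.33 (unadjusted p = 0.0128, adjusted p = 0.275) and Batf at -0.72 ± 0.29 (unadjusted p = 0.0193, adjusted p = 0.324). For Jun the difference was 0.61 with a 95% interval of -0.11 to 1.33, and for Junb -0.48 with an interval of -0.99 to 0.03. For Fosb it was -0.29 ± 0.35 (adjusted p = 0.808). Fosb, Junb and Jund were called in mMDSC alone, and Fosl1, Fosl2, Atf3 and Batf in gMDSC alone. With edgeR none of them was shown to differ in response between the cell types.

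The cell types themselves differed in most members, always with the higher level in gMDSC. With CBPi, 7 of 10 members were higher in gMDSC than in mMDSC (Fos, Fosl1, Fosl2, Jun, Junb, Jund and Atf3) and 0 lower, where 20.1% of 11895 genes were higher and 19.1% lower. With vehicle, 7 of 10 were higher (Fos, Fosl2, Jun, Junb, Jund, Atf3 and Batf) and 0 lower, where 13.6% of 11576 genes were higher and 8.08% lower. At an unadjusted p under 0.05, and with DESeq2 and limma-voom, 0 members were lower in either. The median of the members was 1.07 with CBPi and 0.73 with vehicle, against -0.05 and -0.06 over all genes. The 2 comparisons share no library with each other, but each shares its libraries with the comparisons of CBPi and vehicle.

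**Figure D4:**
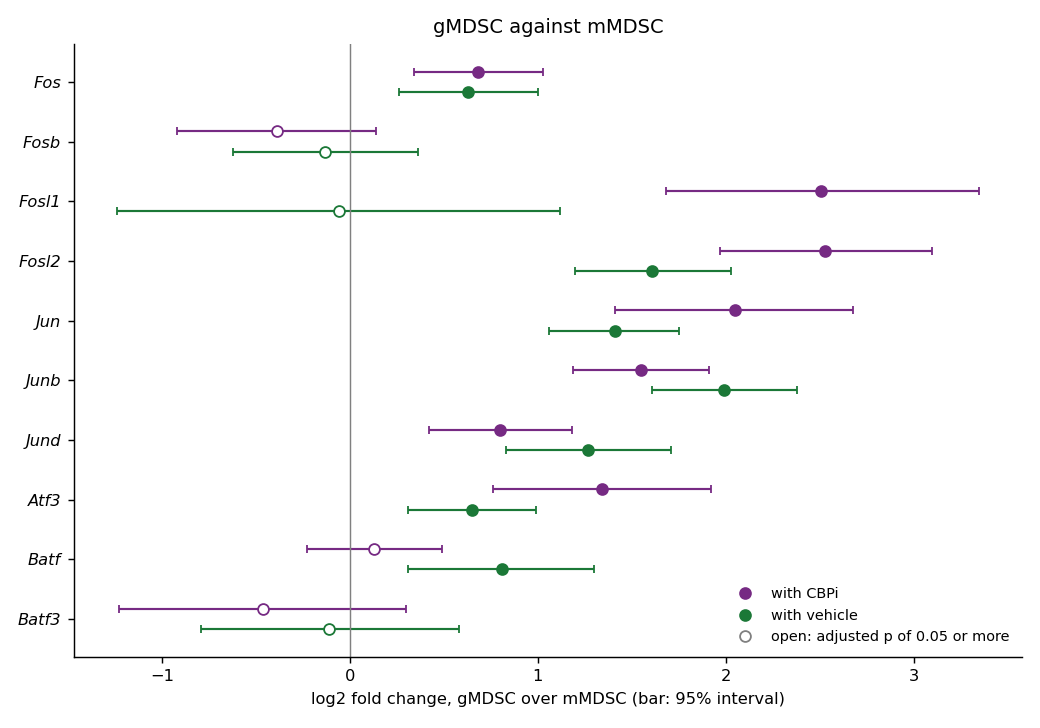
Log2 fold change of each member, gMDSC over mMDSC, with CBPi and with vehicle, with 95% intervals from edgeR; filled points have an adjusted p under 0.05 and open points do not. Fosb and Batf3 are open in both, Fosl1 is filled with CBPi only and Batf with vehicle only.

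In CPM, Jun, Junb, Jund and Fosl2 in gMDSC lay above every mMDSC library under the same treatment, with CBPi and with vehicle. Fos and Fosl1 did so with CBPi only, and Atf3 and Batf with vehicle only. The share of all genes separated in this way was not counted. By the authors' RPKM, Jund overlapped with CBPi, at 296 to 446 in gMDSC and 271 to 343 in mMDSC. With vehicle, Atf3 overlapped by RPKM, at 350 to 581 in gMDSC and 326 to 437 in mMDSC. Batf did so too, at 61.3 to 97.1 in vehicle gMDSC and 54.8 to 64.6 in vehicle mMDSC. Junb, the leading member in gMDSC, differed by 1.55 ± 0.17 with CBPi (adjusted p = 1.14e-05) and by 1.99 ± 0.18 with vehicle (adjusted p = 4.83e-06). Its 5 CBPi gMDSC libraries had 13590, 9884, 7709, 7357 and 7821 CPM, and its 5 vehicle gMDSC libraries 8476, 7804, 12974, 10232 and 6767 CPM. Jun differed by 2.05 ± 0.29 with CBPi (adjusted p = 0.000128) and 1.41 ± 0.16 with vehicle (adjusted p = 3.53e-05), and Fosl2 by 2.53 ± 0.26 with CBPi (adjusted p = 7.08e-06) and 1.61 ± 0.19 with vehicle (adjusted p = 6e-05). Jund differed by 0.80 ± 0.18 with CBPi (adjusted p = 0.00313) and 1.27 ± 0.20 with vehicle (adjusted p = 0.000597), and by 1.03 ± 0.13 with vehicle once vehicle gMDSC 3 was left out.

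Fos had 8478, 7452, 4965, 5620 and 5011 CPM in CBPi gMDSC 6 to 10, against 3721, 4785, 3810, 4419 and 3584 CPM in CBPi mMDSC 6 to 10, with no overlap (log2 fold change 0.68 ± 0.16, adjusted p = 0.00458). By the authors' RPKM these groups did overlap, at 2418 to 3105 in CBPi gMDSC and 2203 to 3123 in CBPi mMDSC. With vehicle Fos had 5613, 4717, 6414, 6540 and 5580 CPM in gMDSC, against 2805, 3160, 4116, 4850 and 3892 CPM in mMDSC, where vehicle gMDSC 2 lay below vehicle mMDSC 4 (0.63 ± 0.17, adjusted p = 0.0181). That call was lost without vehicle mMDSC 2 (adjusted p = 0.0565). Atf3 differed by 1.34 ± 0.27 with CBPi (adjusted p = 0.00165) and by 0.65 ± 0.16 with vehicle (adjusted p = 0.0104), the second lost in a fit of all 20 libraries (adjusted p = 0.0507).

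Fosl1 was higher in gMDSC with CBPi by 2.51 ± 0.39 (adjusted p = 0.000237) and at -0.06 ± 0.54 with vehicle (adjusted p = 0.956). Batf stood the other way, at 0.13 ± 0.17 with CBPi (adjusted p = 0.59) and higher by 0.81 ± 0.23 with vehicle (adjusted p = 0.0232). The Batf call was lost without vehicle mMDSC 1, 3 or 5 (adjusted p up to 0.0603) and with a replicate block (adjusted p = 0.0505). Without vehicle gMDSC 3 the Batf value was 0.56 ± 0.16 (adjusted p = 0.0247). Fosb was at -0.39 ± 0.25 with CBPi (adjusted p = 0.231) and -0.13 ± 0.23 with vehicle (adjusted p = 0.745). Batf3 was at -0.46 ± 0.36 with CBPi (adjusted p = 0.331) and -0.11 ± 0.32 with vehicle (adjusted p = 0.855).

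Around the family, a list of other immediate-early genes also held the chaperone genes Hspa1a, Hspa1b, Hsp90aa1 and Dnajb1. All CBPi calls on this list were higher. With CBPi, 10 of 23 were higher and 0 lower in gMDSC (median 0.69), and 9 of 23 higher and 0 lower in mMDSC (median 0.64). None was lower at an unadjusted p under 0.05 or with DESeq2 or limma-voom. All of the chaperone genes were among the higher calls in gMDSC, and of them only Dnajb1 in mMDSC. In gMDSC the heat shock genes Hspa1a, at 731 ± 398 CPM with CBPi and 44.6 ± 8.44 CPM with vehicle, and Hspa1b led (log2 fold changes 4.07 ± 0.35 and 4.03 ± 0.34, adjusted p = 2.23e-05 and 2.13e-05). They are near-identical genes whose reads may be split between them. In mMDSC the zinc finger factor Egr3, at 4.65 ± 1.05 CPM with CBPi and 0.239 ± 0.105 CPM with vehicle, had a log2 fold change of 4.23 ± 0.43 (adjusted p = 8.7e-05), and the chaperone Dnajb1 one of 0.86 ± 0.11 (adjusted p = 0.00058). Egr1, induced through the same kinases as Fos, rose by 1.11 ± 0.26 in gMDSC (adjusted p = 0.0194) and by 1.55 ± 0.24 in mMDSC (adjusted p = 0.00154). Gene for gene, then, Egr1 and Jun passed in both cell types while Fos passed in neither. Between cell types, 19 of 23 genes of this list, chaperones included, were higher in gMDSC with CBPi and 16 of 22 with vehicle, and 2 were lower in each.

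**Figure D5:**
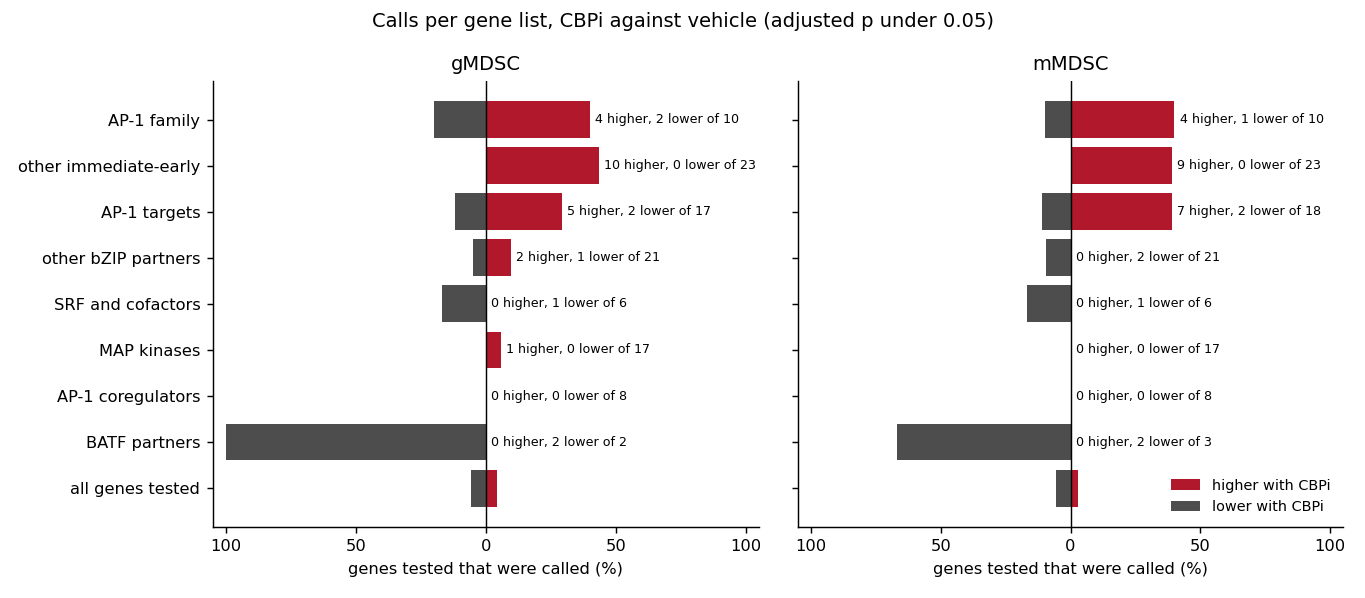
Share of tested genes called higher (right) and lower (left) with CBPi in gMDSC and mMDSC, in percent, for the AP-1 family, 7 related gene lists and all genes tested; the numbers beside the bars count the genes. The AP-1 family and the other immediate-early list have 4 of 10 and 9 or 10 of 23 genes higher, and all genes tested 3.02% to 4.18%. The immediate-early list includes chaperone genes, and the list labelled BATF partners counts Spi1 beside Irf4 and Irf8.

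Genes known as AP-1 targets moved in both directions. In gMDSC 5 of 17 tested were higher with CBPi and 2 lower (median 0.41), and in mMDSC 7 of 18 were higher and 2 lower (median 0.53). Plau, the urokinase protease, was lower in both: it averaged 74.0 ± 11.0 CPM in CBPi gMDSC and 215 ± 21.4 CPM in vehicle gMDSC (log2 fold change -1.50 ± 0.15, adjusted p = 9.37e-05). In mMDSC it averaged 57.0 ± 10.8 CPM with CBPi and 303 ± 36.3 CPM with vehicle (-2.42 ± 0.15, adjusted p = 3.01e-06). The angiogenic factor Vegfa averaged 386 ± 206 CPM in CBPi gMDSC and 53.7 ± 11.5 CPM in vehicle gMDSC (2.89 ± 0.32, adjusted p = 0.000162), and the collagenase Mmp13 averaged 111 ± 16.5 CPM in CBPi mMDSC and 34.6 ± 9.57 CPM in vehicle mMDSC (1.67 ± 0.20, adjusted p = 0.000289). Of the 19 targets tested, 4 differed in response between the cell types with edgeR (3 more positive in gMDSC and 1 more negative, against 0 and 1 with limma-voom), among them the gelatinase Mmp9, with a response lower in gMDSC (-1.91 ± 0.35, adjusted p = 0.0142), and Vegfa, with one higher in gMDSC (1.69 ± 0.38, adjusted p = 0.04).

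Upstream of the family, of 17 MAP kinase genes tested, 1 was higher with CBPi in gMDSC, the ERK kinase Map2k1 (1.03 ± 0.20, adjusted p = 0.00679), and 0 lower. At an unadjusted p under 0.05 there were 4 higher and 1 lower, with DESeq2 also 4 and 1, and with limma-voom 1 and 0. In mMDSC 0 of 17 passed with edgeR, where 6 had an unadjusted p under 0.05, DESeq2 called 2 and limma-voom 0. Of the 6 genes of serum response factor and its cofactors, Elk3 was lower in gMDSC (-0.70 ± 0.16, adjusted p = 0.0187) and in mMDSC (-0.65 ± 0.12, adjusted p = 0.00404), and no other passed with edgeR, while DESeq2 called 1 higher in mMDSC. Among 21 other bZIP genes, 2 were higher and 1 lower in gMDSC, led by Atf1, a CREB relative (-1.34 ± 0.24, adjusted p = 0.00508), and Nfil3 (1.01 ± 0.20, adjusted p = 0.00811). In mMDSC 0 were higher and 2 lower, Creb5 (-0.94 ± 0.20, adjusted p = 0.0118) and Nfe2l2 (-0.44 ± 0.12, adjusted p = 0.0454), and at an unadjusted p under 0.05 4 were higher, as with DESeq2, and 2 with limma-voom.

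Irf8, which acts with the Batf pair, and Spi1 fell with CBPi in both cell types. Irf4 did not pass in mMDSC (0.61 ± 0.99, adjusted p = 0.78) and was too low to be tested in gMDSC. Irf8 averaged 197 ± 40.6 CPM in CBPi gMDSC and 300 ± 22.0 CPM in vehicle gMDSC (-0.57 ± 0.17, adjusted p = 0.0497), and 324 ± 35.7 CPM in CBPi mMDSC and 455 ± 23.4 CPM in vehicle mMDSC (-0.50 ± 0.10, adjusted p = 0.00868). The myeloid factor Spi1 (PU.1) changed by -0.76 ± 0.17 in gMDSC (adjusted p = 0.0144) and -0.36 ± 0.10 in mMDSC (adjusted p = 0.0403). Irf4 was at most 2.33 CPM in any library and had no read in vehicle gMDSC. The genes of the drug's targets did not pass: Crebbp was at -0.04 ± 0.24 in gMDSC (adjusted p = 0.945) and 0.20 ± 0.21 in mMDSC (adjusted p = 0.634), and Ep300 at 0.29 ± 0.17 in gMDSC (adjusted p = 0.322) and 0.16 ± 0.16 in mMDSC (adjusted p = 0.607). In all, 0 of 8 AP-1 coregulators passed with edgeR in either cell type, with 2 in each at an unadjusted p under 0.05, and DESeq2 called 1 in gMDSC and 0 in mMDSC, and limma-voom 0 in both.

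Between the cell types, Jdp2, a bZIP partner of Jun that represses AP-1, was higher in gMDSC by 2.57 ± 0.18 with CBPi (adjusted p = 2.76e-07) and 2.75 ± 0.22 with vehicle (adjusted p = 1.68e-06). It averaged 246 ± 64.4 CPM in CBPi gMDSC and 43.0 ± 6.76 CPM in CBPi mMDSC. The p38 kinase gene Mapk13 was higher in gMDSC by 2.51 ± 0.29 with CBPi (adjusted p = 2.29e-05) and 3.17 ± 0.31 with vehicle (adjusted p = 1.08e-05). Of the AP-1 targets, Mmp9, a granule protease of neutrophils, averaged 978 ± 235 CPM in CBPi gMDSC and 12.8 ± 3.71 CPM in CBPi mMDSC (6.31 ± 0.26, adjusted p = 3.37e-09). Il6 ran the other way, with 15.5 ± 4.64 CPM in CBPi gMDSC and 191 ± 38.5 CPM in CBPi mMDSC (-3.57 ± 0.23, adjusted p = 1.48e-07).

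Across the 20 libraries, the genes outside the family whose log2 CPM ran most like a member's were, for Fos, Klf2 (Pearson's r = 0.937), Klf6 (0.935) and Tpm4 (0.920). For Jun they were Kctd12 (0.969), Dusp5 (0.958) and Atg2a (0.955), and for Batf they were Mzt2 (0.937), Cebpg (0.923) and Itgb1bp1 (0.918). These were the 3 highest values for each among 12678 genes compared, and the points share the same 20 libraries, their depth and the differences between the 4 groups. Within groups, as deviations from the group means, r was 0.910 for Fos with Klf2, 0.890 for Jun with Kctd12 and 0.899 for Batf with Mzt2. It was lower for the others: 0.863 and 0.795 for Fos with Klf6 and Tpm4, and 0.681 and 0.756 for Jun with Dusp5 and Atg2a. For Batf it was 0.717 with Cebpg and 0.861 with Itgb1bp1.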

How the data were processed

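Poly-A RNA was sequenced from TruSeq V2 libraries, per the labels' protocols. Reads were aligned with GSNAP to GRCm38, per the submitters' processing notes. For the counter, the annotation and the use of strand, the sources used here give nothing. The authors deposited raw counts per gene and RPKM values per gene for each library. Counts make up 50.25% to 62.44% of the total that RPKM and gene width imply, so RPKM was used to compare genes within a library, and between libraries only where stated. The quasi-likelihood test of edgeR 4.0.16 (R 4.3.3) was run on the gene counts, with TMM scaling, filterByExpr (minimum count 10, minimum total 15), Benjamini-Hochberg adjustment over all genes tested and a threshold of 0.05. Each comparison was fitted on its own 2 groups, and the difference in response on all 4. SE is the absolute log2 fold change over the square root of F. The edgeR test was also run on counts simulated from edgeR's own model with known changes, and the outcome is not given here. Alternatives were DESeq2 1.42.0, limma-voom (limma 3.58.1), RLE scaling, no filter, a fit of all 20 libraries, a replicate block and leaving out each library. The labels do not say whether libraries of a group came from separate mice, nor whether same-numbered gMDSC and mMDSC libraries came from 1 mouse. The p-values therefore describe variation among libraries, part of which may be technical. Genes named were all members, up to 2 of each other list per comparison with the smallest adjusted p under 0.05, and Crebbp, Ep300 and Egr1; other genes were named after their values were seen. The members and lists were chosen with earlier results of these data known.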

Additional observations from a re-analysis of the deposited data

Results flagged for a closer look

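Of 40 groups of 5 libraries checked (10 members in 4 groups), 2 held a library far from the other 4 by Dixon's ratio, with a critical value of 0.71; chance gives about 1 such group in 20. Fosb was at 22.3 CPM in vehicle gMDSC 1, the lowest of its group (ratio 0.798), and without that library the gMDSC to mMDSC value of Fosb with vehicle was 0 on the log2 scale. Jund was at 945 CPM in vehicle gMDSC 3, the highest of its group (ratio 0.803), the library that also correlated least with its group.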

How the results depend on the processing

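The count of members whose response differed between the cell types was 1 with DESeq2 and 0 to 1 on leaving out 1 library each, against 0; the member was Fosl1 each time. In the other 4 comparisons the count of members called in both directions together stayed within 1.5 times under every alternative run. The higher members in gMDSC with CBPi were 4, and 2 to 4 on leaving out 1 library. Signs turned for values near 0, none of them called: Junb with CBPi in gMDSC ranged from -0.13 to 0.19 on leaving out 1 library; the Fos difference in response was -0.03 with limma-voom, -0.03 with the replicate block and -0.11 to 0.18 on leaving out 1 library. Between the cell types with vehicle, Fosl1 was 0.14 with limma-voom, 0.08 with the replicate block and -0.26 to 0.32 on leaving out 1 library, Batf3 was -0.26 to 0.08 and Fosb -0.25 to 0. The cause was not tested. Same-numbered libraries had correlations of -0.031 to 0.168, with 2 of 10 over 0.1. Of the 10, 4 were highest with their own number, each among 5 candidates. These correlations compare different cell types, so they cannot tell whether a number stands for a shared mouse. With the block, Batf between cell types with vehicle was 0.76 (adjusted p = 0.0505), and the difference in response had 33 higher and 19 lower genes. Over all genes, higher and lower calls were 728 and 1012 with DESeq2 in mMDSC (main test 360 and 660), 925 and 1133 in gMDSC (489 and 646), and 198 and 104 for the difference (63 and 29). A fit of all 20 libraries gave 165 and 474 in mMDSC and 872 and 1310 in gMDSC. Without CBPi gMDSC 6 or 7, gMDSC had 282 and 426 or 229 and 358, and without CBPi gMDSC 7 the difference had 23 and 11. Depth limits Fosl1 in vehicle gMDSC, at 9 to 38 reads.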
